A study of Mus musculus with 6 samples.

Results

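The nuclear-encoded subunits of the oxidative phosphorylation machinery were taken from the gene table by biotype and name. Members are the protein-coding rows whose symbols begin with Nduf followed by a, b, c, s or v and a number, with Uqcr, with Atp5, or with Cox4 to Cox8 and a subunit letter, together with the rows for Sdha to Sdhd. This gave 85 of 54532 rows, with 84 symbols, since Atp5o stood on 2 rows. By their names 37 belong to complex I, 4 to complex II, 8 to complex III, 18 to complex IV and 18 to complex V. A further 12 rows matched the names but not the biotype, and 11 of these were processed pseudogenes, none above 5.34 FPKM in any library.

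Poly-A RNA was sequenced from the CD45-negative fraction of MC38 tumours. MC38 is a mouse colon carcinoma line, and here it was grown under the skin of wild-type C57BL/6 mice. The libraries form 2 groups of 3, one labelled wild type and one labelled Npm1 knockout by CRISPR/Cas9, with no other treatment, time or age in the labels. Hosts in both groups carried Npm1, so any host cells left in the fraction were not knocked out. The labels do not say whether the knockout line is a single clone, or whether libraries came from separate animals. The p-values thus reflect the spread among these libraries alone, and that spread may be technical.

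Complexes I to IV of the inner mitochondrial membrane pass electrons from NADH and succinate to oxygen, and complexes I, III and IV pump protons across the membrane as they do so. Complex V, the ATP synthase, uses the resulting gradient to make ATP. Most subunits are coded in the nucleus and imported, while a few hydrophobic core subunits of complexes I, III, IV and V are coded by mitochondrial DNA. Complex II is coded wholly in the nucleus.

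The 6 libraries held 16917778 to 18662688 fragments. Npm1, which codes for the nucleolar chaperone nucleophosmin, ranged over 169 to 234 FPKM in wild type and over 128 to 191 FPKM in knockout, ranges that overlap, so its RNA level is no check of the labels. The 8 epithelial markers summed to 0.584 to 1.26 FPKM over the libraries, whereas the 10 fibroblast markers summed to 1168 to 1745 FPKM in the wild-type and 1556 to 1733 FPKM in the knockout libraries. Col3a1 alone gave 895 to 1383 FPKM of the fibroblast sum. Of the 10 genes 4 rose (40.0%) and 1 fell in limma, where 5.91% of all genes tested rose and 8.30% fell. Dpt, Pi16, Dcn and Postn rose, by 2.19, 1.43, 1.28 and 1.03, and Col1a1 fell, with a difference of -1.88 (limma adjusted p = 0.00289, 0.0111, 0.0180, 0.0456 and 0.0228), all as log2 differences of knockout from wild type. With the trend over transcript length and GC content described below removed, Dpt and Pi16 passed, at 1.96 and 1.76 (limma adjusted p = 0.00626 and 0.01865). Dcn, Postn and Col1a1 then did not, at 0.95, 0.68 and -1.13 (limma adjusted p = 0.0774, 0.322 and 0.135). The labelled colon cancer identity is not visible in the epithelial markers. Pericyte and smooth muscle markers summed to 51.1 to 66.9 FPKM in wild type against 31.4 to 38.1 FPKM in knockout. Of their 4 tested genes 3 fell in limma, beside 8.30% of all genes, and none rose. These were Cspg4, Notch3 and Mcam, at -1.18, -0.96 and -0.75 (limma adjusted p = 0.0138, 0.0198 and 0.0305). The 4 genes had a median difference of -0.86, or -0.36 with the length and GC trend removed, where none passed. Erythroid markers summed to 1.46 to 22.5 FPKM in wild type against 12.8 to 81.2 FPKM in knockout. The summed ranges were 1.48 to 4.52 and 0.824 to 1.52 FPKM for endothelial, 1.72 to 6.15 and 1.97 to 3.67 FPKM for leukocyte, 1.04 to 1.52 and 1.47 to 1.98 FPKM for skeletal muscle and 0.0939 to 0.284 and 0.297 to 0.499 FPKM for adipocyte markers, each in wild type and then knockout. The part of these cells in the results that follow was not tested. In such bulk samples a change in the cells that make up a sample cannot be told apart from a change in RNA per cell.

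FPKM scales fragments to the deposited gene length and to a library size. The library sizes implied by the deposited values differ somewhat from the recovered fragment totals, by amounts that vary among libraries. Since the deposited gene length can far exceed the main transcript, levels of different genes compare only roughly. The 85 members together took 0.757%, 0.911% and 0.933% of all fragments in wild-type replicates 1 to 3, and 1.22%, 1.26% and 0.955% in knockout replicates 1 to 3. Their median level was 36.0, 45.4 and 46.4 FPKM in wild type and 70.1, 70.5 and 48.4 FPKM in knockout. Knockout replicates 1 and 2 thus stood well above the rest, while knockout replicate 3 lay just above the highest wild-type library.

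Of the 85 members, 79 reached the mean of 1 FPKM needed for testing. Differences are log2(FPKM + 1) in knockout less that in wild type, a scale on which changes of weakly expressed genes come out too small. With limma and Benjamini-Hochberg adjustment over 11287 genes, 13 members rose at an adjusted p under 0.05 and none fell, where 5.91% of all genes tested rose and 8.30% fell. The 13 are 16.5% of the tested members. At an unadjusted p under 0.05, 49 members (62.0%) were higher and 0 lower, where 15.6% and 17.5% of all genes were. In addition, limma-voom on recovered fragments called 14 higher and 0 lower, against 5.49% and 9.68% of all genes. The median difference was 0.53 for the members and 0.02 for all genes tested, and 77 of the 79 members had a difference above 0. All knockout libraries lay above all wild-type libraries for 30 members, or 38.0%, against 16.0% of all genes, and for none did they lie below, against 19.6% of all genes.

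The same libraries recurred at the extremes for most members. Knockout replicate 3 was the lowest knockout library for 76 of the 79 and reached no higher than the highest wild-type library for 49 of them. Knockout replicates 1 and 2 were both above every wild-type library for 74, and wild-type replicate 1 was the lowest of all 6 for 70. The count of 13 depended on these libraries. Without knockout replicate 3 it was 53, against 11.9% of all genes. Without wild-type replicate 1 it was 1 (Ndufa1), against 5.68% of all genes. It was 0 without wild-type replicate 2, wild-type replicate 3, knockout replicate 1 or knockout replicate 2, where 2.55%, 0.0532%, 0.186% and 0.718% of all genes rose. In those 4 fits limma gave 40, 51, 20 and 21 members an unadjusted p under 0.05, or 50.6%, 64.6%, 25.3% and 26.6%, beside 29.4%, 25.8%, 21.6% and 22.8% of all genes. Without wild-type replicate 1 the shares were 24.1% and 31.9%. All these shares count both directions. Without knockout replicate 1, knockout replicate 2 or wild-type replicate 1, 76, 75 and 76 of the 79 members had a difference above 0. The share of all genes that were higher at this threshold was not counted in these fits. The shares thus do not tell whether members were higher more often than other genes. With any 1 library other than knockout replicate 3 left out, the median difference of the members lay between 0.40 and 0.60. Limma weights for each library give less weight to libraries far from their group. They were 0.323, 0.783 and 1.98 for wild-type replicates 1 to 3, and 0.939, 6.81 and 0.312 for knockout replicates 1 to 3. With these weights, which rest mostly on replicate 2 in the knockout group, the count was 61, beside 23.8% of all genes. It was 22 with quantile normalization and 21 with a floor of 5 FPKM, beside 6.96% and 9.38%, and 12 both with TPM scaling and with a pseudocount of 0.1, beside 2.22% and 5.68%. With no filter on low values 24310 genes were tested and neither a member nor any other gene passed in limma. There 43 members (53.1%) and 18.7% of all genes had an unadjusted p under 0.05, in either direction.

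**Figure D1:**
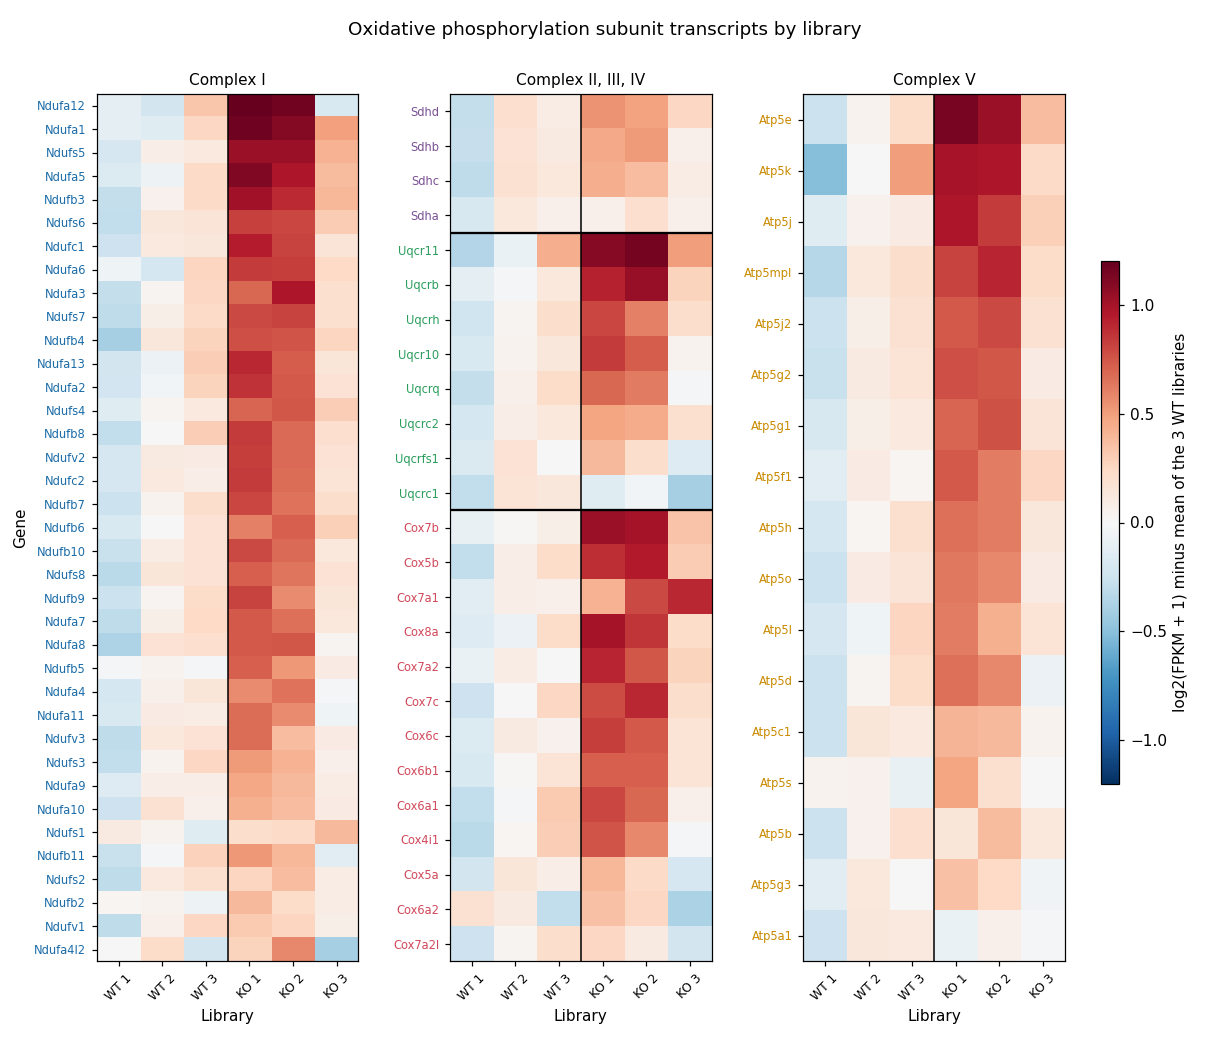
Each cell shows the deviation of 1 of the 79 tested members in 1 library from the mean of the 3 wild-type libraries, on the log2(FPKM + 1) scale, with genes in rows by complex and libraries in columns (WT, wild type, and KO, knockout). Knockout replicates 1 and 2 are the most raised columns, and knockout replicate 3 is the lowest knockout column for 76 of the 79 genes.

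Promoters of respiratory chain genes are known as targets of nuclear respiratory factor 1 (NRF1), of the ETS factor GABP, and of YY1 and SP1. RefSeq promoter windows of GRCm38.p6, from 250 bases before to 50 bases after each gene's start, were at hand for 68 of the 85 members. The NRF1 core GCGCATG was present on either strand in 13 of the 68 windows (19.1%) and in 4.04% of all 27025 windows. The ETS core CCGGAAG stood in 15 (22.1%, against 9.12% of all), the YY1 core AAGATGG in 10 (14.7%, against 6.48%), the SP1 box GGGCGGG in 24 (35.3%, against 25.8%) and the CCAAT box in 30 (44.1%, against 37.9%). In all, 54 of the 68 windows held at least 1 of them, and in no member window did an ETS and a YY1 core share bases. Neither count was made over all 27025 windows, so neither can be read as high or low. Of the 13 members that rose, 12 had a window, and the 5 motifs, in the same order, stood in 2, 2, 1, 3 and 4 of these. Below are the stretches from 170 bases before to 30 bases after the start of the member with the smallest p in complexes I, III, IV and V, and of Uqcrc1, the tested member with the lowest difference. They are given 5′ to 3′ on the gene's strand, with matches to the 5 motifs on either strand in capitals. The stretch of Uqcr11 holds an ETS and then an NRF1 core, that of Atp5e an ETS core, a pair of CCAAT boxes and an SP1 box, and that of Cox7b a CCAAT box. In the stretches of Ndufa1 and Uqcrc1 none of the 5 letter strings was found. The full window of Uqcrc1, however, holds 2 matches to the NRF1 core over both strands outside the stretch shown, while that of Ndufa1 holds no match. A match describes letters only and shows no binding.
Ndufa1 (chrX:37191209-37191408, minus strand): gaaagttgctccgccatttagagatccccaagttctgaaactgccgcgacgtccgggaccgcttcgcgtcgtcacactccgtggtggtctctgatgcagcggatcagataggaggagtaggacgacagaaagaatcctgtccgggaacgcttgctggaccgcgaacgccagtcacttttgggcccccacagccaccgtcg
Uqcr11 (chr10:80406792-80406991, minus strand): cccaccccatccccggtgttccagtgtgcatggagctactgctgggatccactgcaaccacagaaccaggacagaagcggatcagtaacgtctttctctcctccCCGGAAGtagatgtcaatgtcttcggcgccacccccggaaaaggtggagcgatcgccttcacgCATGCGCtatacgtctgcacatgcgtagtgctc
Cox7b (chrX:106015530-106015729, plus strand): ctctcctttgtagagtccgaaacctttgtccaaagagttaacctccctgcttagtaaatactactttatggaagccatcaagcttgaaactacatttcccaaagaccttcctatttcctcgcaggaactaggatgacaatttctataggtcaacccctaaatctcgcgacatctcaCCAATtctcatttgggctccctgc
Atp5e (chr2:174464072-174464271, minus strand): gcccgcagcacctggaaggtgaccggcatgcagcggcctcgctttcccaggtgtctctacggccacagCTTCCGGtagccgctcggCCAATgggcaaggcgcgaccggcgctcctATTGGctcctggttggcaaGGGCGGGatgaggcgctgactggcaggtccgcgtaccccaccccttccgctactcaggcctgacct
Uqcrc1 (chr9:108936478-108936677, plus strand): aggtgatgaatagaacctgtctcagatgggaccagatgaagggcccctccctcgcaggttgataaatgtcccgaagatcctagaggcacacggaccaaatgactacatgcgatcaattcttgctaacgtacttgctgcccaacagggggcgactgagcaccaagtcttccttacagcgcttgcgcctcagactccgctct

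Complex I takes electrons from NADH. Its 37 members had a median difference of 0.54, and each had a difference above 0. The 5 that rose (13.5%, beside 5.91% of all genes tested) are all accessory subunits, which surround the catalytic core. They are Ndufa1 (ENSMUSG00000016427, chromosome X, 37187588 to 37191163), Ndufs5 (chromosome 4, 123712710 to 123718202), Ndufa5 (chromosome 6, 24518666 to 24528013), Ndufb3 (chromosome 1, 58586384 to 58595964) and Ndufs4 (chromosome 13, 114287795 to 114388258), all in GRCm38, as are the positions given for other members. Ndufa1, a small membrane-arm subunit needed for assembly of the complex, measured 46.8, 45.7 and 60.2 FPKM in wild type and 114.5, 109.8 and 71.3 FPKM in knockout replicates 1 to 3. The groups did not overlap, and the third knockout library was nearer to wild type than to the other knockouts. The means were 50.9 ± 8.11 and 98.5 ± 23.7 FPKM (SD, n = 3 each), a difference of 0.92 (SE 0.206, limma adjusted p = 0.0238). Ndufs5, which lies on the intermembrane face, measured 43.2, 52.7 and 54.0 FPKM in wild type and 103, 103 and 66.7 FPKM in knockout. It rose by 0.83 (SE 0.197, limma adjusted p = 0.0265), again with no overlap and with the third knockout library lowest of the knockouts. Ndufa5, a subunit of the matrix arm, measured 23.7, 25.5 and 31.3 FPKM against 58.8, 53.2 and 34.99 FPKM, a rise of 0.82 (SE 0.205, limma adjusted p = 0.0311). Ndufb3, of the membrane arm, rose by 0.77 (SE 0.200, limma adjusted p = 0.0351), from 38.3 ± 6.98 to 66.2 ± 14.0 FPKM (SD, n = 3 each). Ndufs4, loss of which gives a Leigh-like encephalopathy in mice, rose by 0.58 (SE 0.164, limma adjusted p = 0.0427), from 12.6 ± 1.25 to 19.6 ± 3.35 FPKM (SD, n = 3 each).

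The 30 accessory members of complex I, counted with Ndufa4 and Ndufa4l2, had a median difference of 0.56. The 7 core members, which carry the flavin, the iron-sulfur clusters and the quinone site, had a median of 0.33. Of them 0 passed in limma or limma-voom. At an unadjusted p under 0.05 in limma, 3 (42.9%) were higher, beside 15.6% of all genes. The core genes also have longer transcripts, with a median of 1623 bases for the principal transcript against 747.5 bases for the accessory ones. Among the core, Ndufs7 had the highest difference, 0.60 (limma adjusted p = 0.0788), and Ndufv1, which binds NADH, the lowest, 0.22 (limma adjusted p = 0.405). Ndufa12, an accessory subunit of the matrix arm, had the largest difference of all members, 1.03, but did not pass (SE 0.451, limma adjusted p = 0.143). Its levels were 8.63, 7.95 and 12.1 FPKM in wild type and 43.8, 22.2 and 8.15 FPKM in knockout. Knockout replicate 1 was far above every other library, and knockout replicate 3 lay within the wild-type range. Levels of complex I members ranged from a mean of 1.11 FPKM for Ndufa4l2 to 139.9 FPKM for Ndufa2. Without knockout replicate 3, 27 of the 37 rose, beside 11.9% of all genes.

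Complex II, succinate dehydrogenase, links the TCA cycle to the chain, and its 4 subunits had the lowest median difference of the complexes, 0.32. They also had the longest principal transcripts, with a median of 2065.5 bases against 659 to 955 bases in the other complexes. None of them passed in limma or limma-voom, with 1 at an unadjusted p under 0.05, and none passed without knockout replicate 3 either. Sdhd, a membrane anchor, measured 64.4, 90.6 and 83.6 FPKM in wild type and 115, 111 and 93.8 FPKM in knockout. Its groups did not overlap, but the difference of 0.43 did not pass (SE 0.174, limma adjusted p = 0.120). The other anchor, Sdhc, had a difference of 0.30 (limma adjusted p = 0.262) and the iron-sulfur subunit Sdhb one of 0.34 (limma adjusted p = 0.222). For Sdha, the flavoprotein that oxidises succinate, the levels were 36.0, 45.1 and 43.0 FPKM in wild type and 43.1, 47.4 and 43.0 FPKM in knockout. These ranges overlap, with a difference of 0.11 (95% interval -0.22 to 0.43, SE 0.146, limma adjusted p = 0.627).

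Complex III passes electrons from ubiquinol to cytochrome c. Of its 8 members, 2 small accessory subunits rose, and the median difference was 0.48. Uqcr11 (ENSMUSG00000020163, chromosome 10, 80402997 to 80406830) measured 47.6, 57.8 and 83.1 FPKM in wild type and 131, 137 and 86.9 FPKM in knockout. The lowest knockout library was only slightly above the highest wild-type library. The difference was 0.91 (SE 0.238, limma adjusted p = 0.0351). Uqcrb (chromosome 13, 66900617 to 66905378), which lies near the quinone site, measured 36.6, 39.5 and 43.6 FPKM in wild type and 76.3, 83.0 and 48.0 FPKM in knockout, a rise of 0.74 (SE 0.206, limma adjusted p = 0.0412). The hinge protein Uqcrh had levels of 65.9, 79.8 and 90.2 FPKM in wild type and 137, 119 and 90.4 FPKM in knockout, and its difference of 0.54 did not pass (SE 0.194, limma adjusted p = 0.0845).

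The larger subunits of complex III had lower differences. Uqcrc1 and Uqcrc2 are its core proteins, and Uqcrfs1 is the Rieske iron-sulfur protein. Their principal transcripts, of 1653, 1896 and 1363 bases, are longer than those of Uqcr11, Uqcrb and Uqcrh, of 445, 535 and 547 bases. Uqcrc1 measured 53.1, 73.4 and 71.8 FPKM in wild type and 59.1, 64.0 and 49.4 FPKM in knockout. It was one of 2 members with a difference below 0, at -0.19 (95% interval -0.58 to 0.20, SE 0.176, limma adjusted p = 0.469), and its groups overlap. Uqcrc2 had a difference of 0.37 (limma adjusted p = 0.132) and Uqcrfs1 one of 0.15 (limma adjusted p = 0.582). Without knockout replicate 3, 5 of the 8 rose, beside 11.9% of all genes.

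Complex IV, cytochrome c oxidase, had a median difference of 0.58 over 13 tested members. Of these 4 rose (30.8%), or 10 without knockout replicate 3, beside 5.91% and 11.9% of all genes. The median of complex IV was above that of complex I. With Ndufa4 and Ndufa4l2 counted in complex IV the order turned, to 0.53 against 0.56 for complex I. Quantile normalization also turned it, to 0.45 against 0.47, as did no filter on low values, to 0.532 against 0.537. The 4 are Cox7b (ENSMUSG00000031231, chromosome X, 106015700 to 106022450), Cox7a1 (chromosome 7, 30184144 to 30186078), Cox7a2 (chromosome 9, 79755361 to 79759878) and Cox5b (chromosome 1, 36691449 to 36693681). Cox7b, a small membrane-spanning subunit, measured 45.7, 49.3 and 51.2 FPKM in wild type and 101, 98.6 and 62.2 FPKM in knockout. The wild-type libraries were close together and all knockout libraries lay above them, with a difference of 0.79 (SE 0.196, limma adjusted p = 0.0305). Cox7a2, the form of subunit VIIa found in most tissues, rose by 0.64 (SE 0.185, limma adjusted p = 0.0454), from 72.0 ± 4.42 to 114.9 ± 25.4 FPKM (SD, n = 3 each). Cox5b, a zinc-binding subunit on the matrix side, rose by 0.71 (SE 0.209, limma adjusted p = 0.0477), from 47.0 ± 8.43 to 78.5 ± 18.2 FPKM (SD, n = 3 each). Cox5a, its neighbour in the complex, had levels of 22.7, 29.5 and 28.1 FPKM in wild type and 35.4, 31.3 and 22.9 FPKM in knockout, which overlap, with a difference of 0.14 (SE 0.185, limma adjusted p = 0.618). Cox8a, another small subunit, had the highest mean FPKM of the members, though not the highest level per kilobase of principal transcript, where Atp5b stood at 697 and Cox8a at 408. It measured 278, 295 and 361 FPKM in wild type and 617, 561 and 360.1 FPKM in knockout. Knockout replicate 3 fell just inside the wild-type range, and the difference of 0.69 did not pass (SE 0.231, limma adjusted p = 0.0700).

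Complex V makes ATP in its F1 head and conducts protons through its membrane part. Of 17 tested members 2 rose (11.8%), or 11 without knockout replicate 3, beside 5.91% and 11.9% of all genes. The median difference was 0.47. Atp5e (ENSMUSG00000016252, chromosome 2, 174461072 to 174464105), the epsilon subunit of the central stalk, measured 58.9, 73.1 and 82.5 FPKM in wild type and 157, 147 and 91.6 FPKM in knockout. It rose by 0.85 (SE 0.223, limma adjusted p = 0.0360), with no overlap of the groups. Atp5j (chromosome 16, 84827866 to 84835625), coupling factor 6 of the peripheral stalk, measured 17.7, 20.4 and 21.2 FPKM in wild type and 39.7, 36.2 and 24.3 FPKM in knockout, a rise of 0.70 (SE 0.190, limma adjusted p = 0.0388). Of its exon bases 12.7% also belong to Gabpa on the opposite strand, and the strand setting of the counting is not given in the sources used here. Atp5f1, subunit b of the peripheral stalk, had levels of 45.8, 53.7 and 51.0 FPKM in wild type and 83.9, 77.0 and 59.7 FPKM in knockout. Its groups did not overlap, but its difference of 0.53 just missed the threshold (SE 0.166, limma adjusted p = 0.0577).

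The other subunits of the F1 head had lower differences than epsilon. The 5 F1 members had a median difference of 0.28 and the 12 other tested members of complex V one of 0.54, with median principal transcripts of 1410 and 770 bases. Atp5a1, the alpha subunit, measured 254, 332 and 327 FPKM in wild type and 286, 314 and 297 FPKM in knockout. All knockout libraries lay within the wild-type range, with a difference of -0.02 (95% interval -0.41 to 0.37, SE 0.175, limma adjusted p = 0.959). The catalytic beta subunit Atp5b measured 242, 301 and 333 FPKM against 321, 378 and 317 FPKM, with a difference of 0.22 (SE 0.184, limma adjusted p = 0.423). The gamma subunit Atp5c1 had a difference of 0.28 and the delta subunit Atp5d one of 0.39 (limma adjusted p = 0.291 and 0.239).

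**Figure D2:**
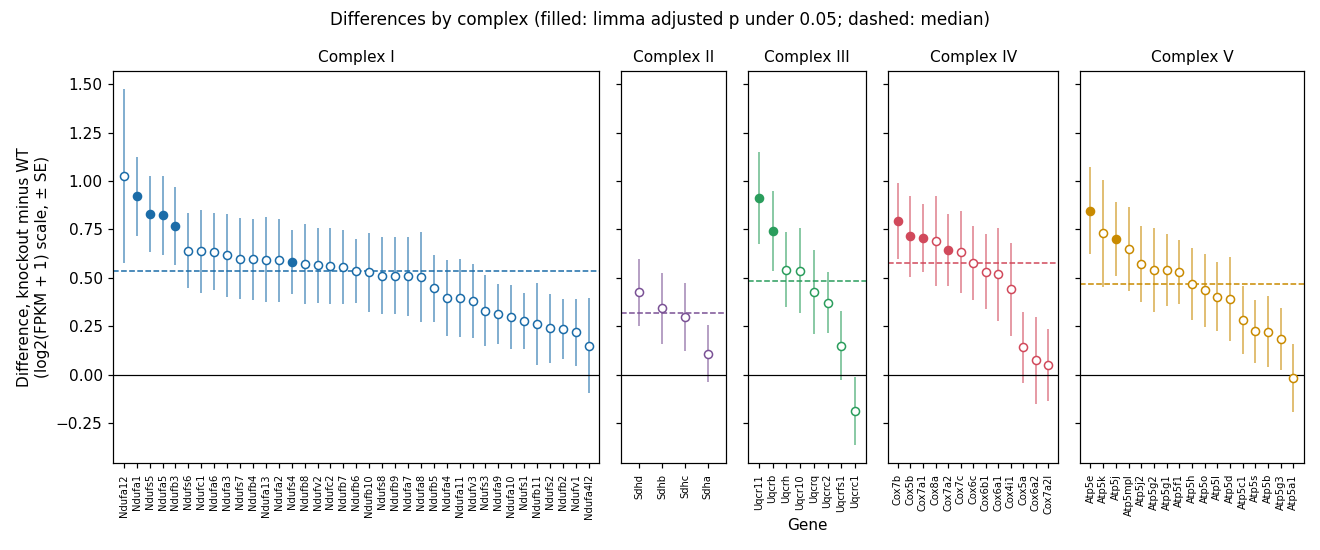
Each point is the difference in log2(FPKM + 1) between knockout and wild type of 1 tested member, with its limma standard error as a bar, ordered within each complex. Filled points are the 13 members with a limma adjusted p under 0.05, and dashed lines are the medians of the complexes, from 0.32 in complex II to 0.58 in complex IV.

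Several subunits have alternative genes whose use depends on tissue or oxygen. The tissue-restricted forms were scarce in every library. Among them Cox7a1, the heart and muscle form of subunit VIIa, rose. It measured 1.08, 1.41 and 1.38 FPKM in wild type and 2.05, 2.97 and 3.29 FPKM in knockout, from 11, 13 and 12 fragments against 20, 28 and 33. Here knockout replicate 3 was the highest library, unlike for most members, and the difference was 0.71 (SE 0.174, limma adjusted p = 0.0305). The call was lost in limma-voom (adjusted p = 0.0863), with TPM scaling (limma adjusted p = 0.0766) and with the length and GC trend removed (limma adjusted p = 0.180). Skeletal muscle markers summed to 1.04 to 1.52 FPKM in wild type and 1.47 to 1.98 FPKM in knockout, and their part in this rise was not tested. Cox6a2, the muscle form of subunit VIa, had 8 to 21 fragments per library and a difference of 0.07 (limma adjusted p = 0.842), beside 231.8 to 499 FPKM for the common form Cox6a1 (difference 0.52, limma adjusted p = 0.163). Cox7a2l, which takes part in joining complexes III and IV into supercomplexes, measured 106, 130 and 147 FPKM in wild type and 151, 137 and 109 FPKM in knockout. These ranges overlap, and its difference of 0.05 (SE 0.186, limma adjusted p = 0.873) turned to -0.07 with TPM scaling and to -0.08 with quantile normalization.

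Of the oxygen-dependent forms, Cox4i2 had 0, 0 and 1 fragments in wild type and 0, 0 and 4 in knockout, whereas Cox4i1 measured 196 to 302 FPKM in wild type and 243 to 416 FPKM in knockout (difference 0.44, SE 0.241, limma adjusted p = 0.229). Ndufa4l2, known as a hypoxia-induced relative of Ndufa4, measured 0.962, 1.27 and 0.675 FPKM against 1.35, 1.92 and 0.486 FPKM. The knockout libraries held both its highest and its lowest value, with a difference of 0.15 (limma adjusted p = 0.692). Ndufa4 itself, which is found with complex IV despite its name, had a difference of 0.40 (SE 0.198, limma adjusted p = 0.190). The testis form Cox6b2 was seen with 3 and 2 fragments in knockout replicates 1 and 2 and with 0 in the other libraries, beside a difference of 0.53 for Cox6b1 (limma adjusted p = 0.0883). Cox7b2, Cox8b, Cox8c and the second row of Atp5o had 0 fragments in all 6 libraries. With Cox4i2 and Cox6b2 these are the 6 members that were not tested.

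Subunit c, which forms the rotor ring of complex V, has 3 genes that code for the same mature protein. Their summed level was 202, 254 and 255 FPKM in wild type and 369, 358 and 246 FPKM in knockout. Atp5g2 made up 58.3%, 60.2% and 62.7% of the sum in wild type and 66.1%, 66.8% and 62.1% in knockout, and Atp5g3 made up 34.7%, 33.0% and 30.3% against 26.5%, 25.3% and 30.4%. The shift towards Atp5g2 was thus seen in knockout replicates 1 and 2 and not in replicate 3. Atp5g1 and Atp5g2 each had a difference of 0.54 (limma adjusted p = 0.0762 and 0.117) and Atp5g3 one of 0.18 (limma adjusted p = 0.449), none of which passed.

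**Figure D3:**
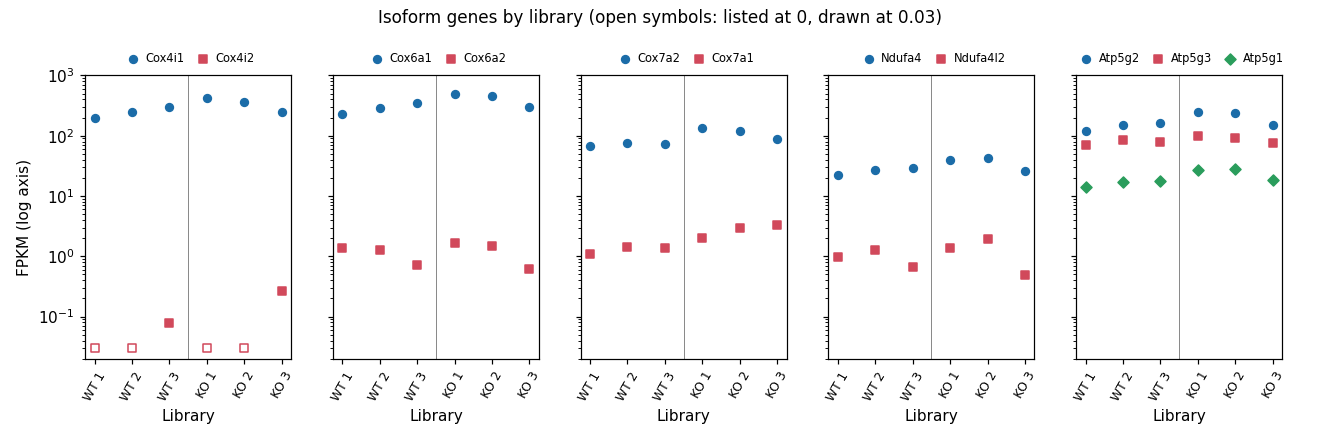
Levels in FPKM on a log axis are shown per library for Cox4i1 and Cox4i2, Cox6a1 and Cox6a2, Cox7a2 and Cox7a1, Ndufa4 and Ndufa4l2, and the 3 genes of subunit c, with open symbols for values of 0. Cox7a1 lies between 1.08 and 1.41 FPKM in wild type and between 2.05 and 3.29 FPKM in knockout, far below Cox7a2 in every library.

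Differences in the knockout comparison went with transcript length, and these subunits have short transcripts. The principal transcript had a median of 861 bases in the tested members and 2960 bases in all tested protein-coding genes. Across the 79 members the difference had a Spearman correlation of -0.529 with log2 transcript length, and across 10017 protein-coding genes it was -0.505. Genes share the same 6 libraries and are not independent replicates. When the protein-coding genes were ranked by length into 5 equal bins, the bin of the shortest transcripts, from 72 to 1669 bases, held 68 of the 79 members. Its 2004 genes had a median difference of 0.31 and 12.3% of them rose, while its members had a median of 0.53 and 12 of them, or 17.6%, rose. The next bin held 6 members with a median of 0.33, beside 0.10 for its genes. The 2 bins after it held 3 and 2 members with medians of 0.28 and 0.39, beside -0.06 and -0.16, and the bin of the longest transcripts held none, with a median of -0.29.

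The same libraries carried the length pattern. Against the mean of the wild-type libraries, the shortest bin deviated by -0.15, 0.05 and 0.10 in wild type and by 0.47, 0.39 and 0.07 in knockout replicates 1 to 3, and the longest bin by 0.14, -0.05 and -0.07 against -0.45, -0.37 and -0.05. For the members the deviations were -0.25, 0.06 and 0.17 in wild type and 0.72, 0.66 and 0.16 in knockout. When a smooth surface over length and GC content of the longest transcript was removed from each library, the median difference of the members fell to 0.23 and 69 of 79 stayed above 0. None then passed in limma, where 0.994% of all genes were higher. Counted in either direction, 33 members (41.8%) beside 25.96% of all genes had an unadjusted p under 0.05. The medians were then 0.24, 0.08, 0.14, 0.34 and 0.23 for complexes I to V. With the principal transcript in its place the median was 0.26, and 1 member, Uqcr11, passed with a difference of 0.74 (limma adjusted p = 0.0461), where 0.852% of all genes were higher. TPM scaling moved the median of all genes by -0.10, to -0.08, and left the members at a median of 0.42.

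**Figure D4:**
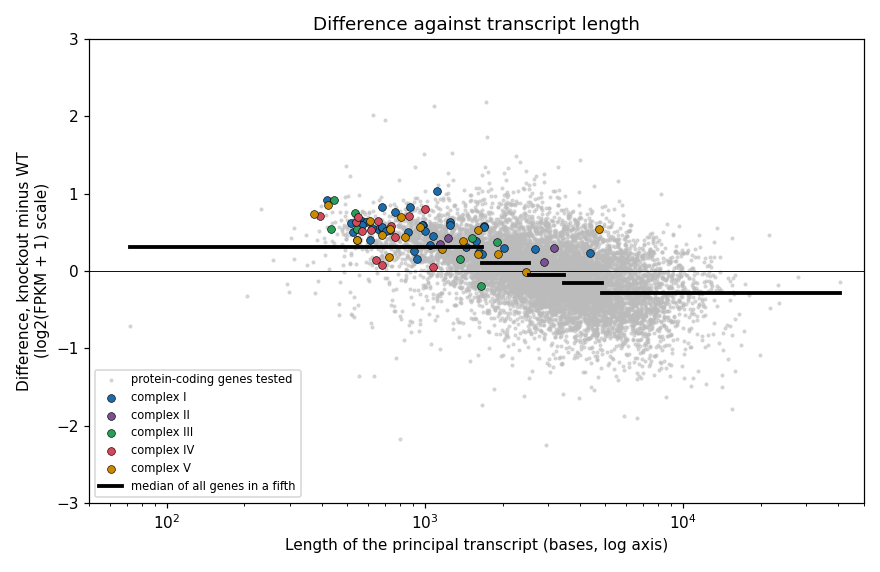
The difference in log2(FPKM + 1) between knockout and wild type is plotted against the length of the principal transcript on a log axis for all tested protein-coding genes (grey) and for the members, coloured by complex. Black bars are the medians of the protein-coding genes in 5 equal bins of length, which go from 0.31 in the shortest to -0.29 in the longest, and most members lie above the bar of their bin.

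The 13 subunits coded by mitochondrial DNA are the partners of these proteins in complexes I, III, IV and V. None of them passed in limma or limma-voom. At an unadjusted p under 0.05 in limma, 1 (7.69%) was higher, beside 15.6% of all genes. Their median difference was 0.08. Their transcripts are short too, with a median of 784 bases. With the length and GC trend removed their median was -0.43, 2 of 13 stayed above 0 and none passed in limma. With the principal transcript's trend removed the median was -0.58. Their summed level was 4828, 4475 and 5249 FPKM in wild type and 8140, 4233 and 4824 FPKM in knockout, so that replicate 1 alone was high in the knockout group. The ratio of the nuclear to the mitochondrial sum came to 0.849, 1.13 and 1.06 in wild-type libraries and to 0.953, 1.77 and 1.09 in knockout libraries. Poly-A selection was used for all libraries, and mitochondrial transcripts carry short poly-A tails.

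Other genes of the pathway were taken from lists. Of 53 assembly factors, 45 were tested, and the median difference was 0.32. In limma 3 rose (6.67%) and 1 fell, where 5.91% of all genes rose and 8.30% fell, so the share of risers is near that of all genes. The risers were Uqcc3 of complex III (0.91, limma adjusted p = 0.0283) and Ndufaf6 and Ndufaf1 of complex I (0.54 each, limma adjusted p = 0.0410 and 0.0444). With the trend of length and GC removed none of the 3 passed, at 0.61, 0.27 and 0.13 in the same order (limma adjusted p = 0.0547, 0.231 and 0.468). With the principal transcript's trend removed instead, Uqcc3 passed, at 0.68 (limma adjusted p = 0.0474). Sco1, a copper chaperone of complex IV, fell from 5.48 ± 0.280 to 3.68 ± 0.202 FPKM (SD, n = 3 each), a difference of -0.47 (limma adjusted p = 0.0480), and at -0.78 it passed after removal of that trend too (limma adjusted p = 0.0320). The next list, of 17 genes, holds mainly electron carriers and coenzyme Q synthesis genes. It also counts Ndufab1, an acyl carrier subunit of complex I that the name rule misses, and Atpif1, an inhibitor of the ATP synthase. Of the 17 genes 2 rose (11.8%, beside 5.91% of all genes), with a median of 0.30. These were Etfa, of the electron transfer flavoprotein (0.68, limma adjusted p = 0.0236), and Coq8a, of coenzyme Q synthesis (0.68, limma adjusted p = 0.0419). Trend removal took Etfa to 0.23, where it did not pass (limma adjusted p = 0.153), and left Coq8a passing at 0.92 (limma adjusted p = 0.0418).

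Of 13 TCA cycle genes 2 rose (15.4%) and 1 fell, beside 5.91% and 8.30% of all genes, with a median of 0.18. Sucla2, of succinyl-CoA ligase, rose by 0.60 and Dld, the shared dihydrolipoamide dehydrogenase, by 0.63 (limma adjusted p = 0.0268 and 0.0351). After trend removal they stood at 0.23 and 0.25 and did not pass (limma adjusted p = 0.164 and 0.228). Ogdh, the first enzyme of the 2-oxoglutarate dehydrogenase complex, measured 26.5, 35.9 and 30.2 FPKM in wild type and 14.5, 16.4 and 17.6 FPKM in knockout. It fell with no overlap of the groups, by a difference of -0.89 (SE 0.157, limma adjusted p = 0.0148), and passed also with the length and GC trend removed, at -0.65 (limma adjusted p = 0.0407). Of 12 regulators of respiratory genes 10 were tested. Pprc1, a coactivator related to PGC-1alpha, fell from 26.6, 16.1 and 21.4 to 7.93, 9.59 and 11.9 FPKM, a difference of -1.04 (SE 0.204, limma adjusted p = 0.0174). With the trend removed its difference was -0.50 and no longer passed (limma adjusted p = 0.155). Tfb2m, a factor for transcription of mitochondrial DNA, rose by 0.74 (SE 0.150, limma adjusted p = 0.0184), and was at 0.39 with the trend removed (limma adjusted p = 0.0987).

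Levels of single members also depend on the gene length that the deposited values were divided by, which for some genes is far longer than the main transcript. Atp5l, subunit g of complex V, stood at a mean of 8.52 FPKM with a gene length of 6443 bases and a principal transcript of 544 bases, and would stand at 101 per kilobase of the latter. For Ndufb2 of complex I the gene length was 5628 bases and the mean 1.22 FPKM. The length used is the same in every library. Of the member rows, 30 have exons that overlap those of another gene, among them Ndufb6, with 39.0% of its exon bases shared with Smim27 on the opposite strand.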

How the data were processed

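The authors deposited 1 table of FPKM per gene, with 1 column per library and a gene length column, per the file headers, and no replicates were pooled. Tools named in the submitters' processing notes, with no role, are HISAT2 2.0.5, featureCounts 1.5.0-p3, CASAVA 1.8 and DESeq2 1.20.0, and the build is GRCm38 (mm10). Which filters and strand setting were applied is not given in the sources used here. Deposited FPKM times gene length came to whole fragments for 100% of values, to within 0.001, which recovers the depth.

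On log2(FPKM + 1), limma 3.58.1 (R 4.3.3) compared the groups without covariates, two-sided and with variances moderated along a mean trend, over 11287 genes at or above a mean of 1 FPKM. P-values were Benjamini-Hochberg adjusted over all of these, and 0.05 was the threshold. Levels carry SDs over 3 libraries, and differences carry limma's standard errors. The surface over length and GC content was fitted with mgcv 1.9.3 on 11269 genes. Alternatives were a pseudocount of 0.1, no filter or a mean of at least 5 FPKM, TPM and quantile scaling, limma-voom on recovered fragments, array weights, a replicate block, removal of the length and GC trend, and leaving out each library. The principal-transcript version of that trend, and the trend with each library left out, were chosen after seeing the data. The principal transcript is the one the reference annotation tags as such. The procedure was tested on simulated data. Those counts were drawn independently for each gene and library, with no trend over length or GC content. The simulation thus cannot tell how such a trend affects the calls.

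Members, lists and motifs were chosen with earlier results of these data known. The naming rule takes, in full, the 3 tested members of each complex with the smallest p, members that fell, and tissue or oxygen dependent isoforms with their partners. From each other list it takes up to 3 genes by smallest p and the regulators that passed. The other members given with values were chosen after these were seen, apart from those that make up a count.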

Additional observations from a re-analysis of the deposited data

How the results depend on the processing

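No member was called lower in any alternative run. The 13 members called higher became 61 with array weights, a fit that weighted knockout replicate 2 most. They became 22 with quantile normalization, 21 with a mean of at least 5 FPKM and 0 with no filter. With no filter limma gave 43 at an unadjusted p under 0.05. Removal of the length and GC trend took the count to 0 and the members' median difference to 0.23, and for the principal transcript to 1 and 0.26. Deviations from the group mean correlated at -0.19, 0.27 and -0.37 for same-numbered libraries, and at -0.395 to 0.421 for differently numbered ones. With so few libraries these values cannot tell whether the replicate numbers pair the samples. A replicate block gave 1 call, against 2.77% of all genes higher, and the block with the trend removed gave 0 calls and a median of 0.23. Leaving out 1 library gave 0 to 53 calls, and the same with the trend removed 0 to 10 calls (10 without knockout replicate 3, against 1.40% of all genes), with medians from 0.155 to 0.317 (0.205 without knockout replicate 1), against 0.398 to 0.698 without that correction. limma-voom gave 14 calls, TPM scaling 12 and a pseudocount of 0.1 gave 12. Some differences that had not passed changed sign. Cox6a2 went to -0.0105 with TPM scaling, -0.20 and -0.23 with the principal and the longest transcript's trend removed, -0.23 with the block added, and from -0.0732 to 0.30 with 1 library left out. Cox7a2l went to -0.0654 with TPM, -0.0778 with quantile scaling, -0.0044 with array weights, -0.31 and -0.24 with the trends removed, -0.24 with the block added, and from -0.0762 to 0.18 with 1 library left out. Ndufa4 went to -0.0944 with the trend removed, also with the block, and Atp5g3 to -0.15 in both and -0.11 with the principal transcript. Ndufa4l2 went to -0.0133 with the latter and from -0.0642 to 0.42 with 1 library left out. Other members turned too. With the longest and then the principal transcript's trend removed, Cox5a went to -0.24 and -0.18 and Uqcrfs1 to -0.23 and -0.20. Ndufa9 went to -0.07 and -0.04 in the same order, and Atp5s to -0.27 in both. Atp5c1 went to -0.11 with the principal transcript's trend removed. With that of the longest transcript removed, Ndufb11 went to -0.005 and Atp5a1 to 0.06. The causes of these changes were not tested. Low depth limits Cox7a1, Cox6a2 and Ndufa4l2 most.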
